A study of Mus musculus with 32 samples.

Results

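The response of Oct4 knockout (KO) smooth muscle cells to the oxidised phospholipid POVPC was compared between hypoxia and normoxia, as an interaction. For each gene the POVPC minus vehicle difference in normoxia was subtracted from the same difference in hypoxia, on the log2 scale. A positive interaction means that the POVPC response was more positive in hypoxia than in normoxia. The comparison used 12 of the 32 libraries of the series, chosen by their labels alone: KO Vehicle Normoxia, KO POVPC Normoxia, KO Vehicle Hypoxia and KO POVPC Hypoxia, with 3 libraries each. The other libraries are 12 from wild-type (WT) cells under the same 4 conditions, used here for comparison, and 8 from artery lesions, not used here.

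All 4 groups carry the Oct4 -/- genotype on the C57BL/6 strain and come from primary aortic smooth muscle cells, of which the study made 1 line per genotype. Hypoxia was 1% oxygen. The dose of POVPC, its vehicle, the length of exposure, the way the gene was deleted and whether the 3 libraries of a group came from separate cultures are not given in the sources used here. The p-values therefore measure the spread between these libraries, which may be technical, and a difference between KO and WT cells cannot be told apart from a difference between the 2 lines.

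POVPC is a truncated phosphatidylcholine formed when the lipids of low-density lipoprotein oxidise, and it accumulates in atherosclerotic plaques. In cultured smooth muscle cells, oxidised phospholipids are known to lower contractile genes and to raise inflammatory ones. Low oxygen stabilises the HIF transcription factors, which raise genes of glycolysis and oxygen supply, and plaque cores are poorly oxygenated. Cells under damage from oxidised lipids can engage immediate early genes, the heat shock response, the NRF2 antioxidant programme and the amino acid response led by ATF4.

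The 12 libraries held 11618385 to 30231799 counts, and 14496 of 23284 genes were tested. Pou5f1, which encodes Oct4, had 0 counts in 10 libraries, 2 counts in KO POVPC Normoxia 1 and 1 count in KO Vehicle Hypoxia 3. The WT culture libraries were as empty, with 1 count in WT Vehicle Normoxia 1 and none in the others. These counts therefore do not tell KO from WT cells. Oxygen separated the libraries on the first principal component, which held 77.7% of the variance of KO libraries. KO Vehicle Hypoxia 3 stood apart, with the lowest count total, 8.07 multimapping alignments per assigned one against 0.774 to 3.88 in the other 11, and 14.2% of its counts in the RNA gene Rpph1. KO Vehicle Normoxia 3 differed from its fellow libraries, with 0.793 multimapping alignments per assigned one against 3.88 and 2.84. The 24 genes led with below were called with either of these 2 libraries left out.

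The smooth muscle label was checked against markers. Acta2, the actin of the contractile apparatus, was at 16.6 to 62.4 CPM (counts put on a common scale of library size), and Smtn, a cytoskeletal protein of smooth muscle, was at 64.3 to 113 CPM in normoxia and 14.5 to 22.3 CPM in hypoxia. Tagln was at 3.59 to 14.3 CPM and Lmod1 at 1.17 to 3.56 CPM, whereas Myh11, the smooth muscle myosin heavy chain, stayed at or below 0.800 CPM, Mylk at or below 0.573, Cnn1 at or below 0.407 and Myocd at or below 0.214 CPM. The 8 smooth muscle markers summed to 44.4 to 183 CPM. The adventitial fibroblast markers (5 of 5 detected) summed to 843 to 932 CPM in normoxia and 298 to 382 CPM in hypoxia. Dpt was at 236 to 324 CPM in normoxia and 205 to 279 CPM in hypoxia. The others were far lower in hypoxia. Pi16 went from 94.6 to 125 CPM in normoxia to 27.2 to 32.4 CPM, and Ly6a from 257 to 304 to 49.2 to 57.6 CPM. Cd34 went from 106 to 128 to 2.49 to 3.91 CPM, and Pdgfra from 88.9 to 125 to 8.99 to 19.2 CPM. Of the 8 smooth muscle markers, 4 (Myh11, Mylk, Cnn1 and Myocd) were thus below 1 CPM in all 12 libraries, and the cells are called KO cells from here on. Markers of macrophages (6, summing to 1.79 to 5.19 CPM), endothelium (5, summing to 1.12 to 4.52 CPM) and lymphocytes (3, summing to 0.102 to 1.02 CPM) were low in all 12 libraries. The defining leukocyte marker Ptprc was at 0 counts in 6 libraries and at most 0.204 CPM in the others.

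The POVPC response of KO cells differed between the 2 oxygen levels for 93 genes. A gene was called at a false discovery rate (FDR) under 0.05 in edgeR's quasi-likelihood test, and the 93 called genes were 0.642% of those tested. Of these, 41 had a positive interaction (0.283% of genes tested) and 52 a negative one (0.359%). A size of at least 2-fold was reached by 19 (0.131%). An unadjusted p under 0.05 was found for 1426 genes, and the median interaction of all genes was 0.0027.

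In normoxia POVPC changed 6 genes (0.0414% of those tested), and in hypoxia it changed 588 (4.06%), of which 285 rose (1.97%) and 303 fell (2.09%). The hypoxic count was 269 without KO Vehicle Hypoxia 2, 300 without KO POVPC Hypoxia 3 and 374 without KO Vehicle Hypoxia 3. The normoxic count was 310 without KO Vehicle Normoxia 3, where the hypoxic count was 709. Among the 41 genes with a positive interaction the median POVPC response was 0.71 in hypoxia and -0.13 in normoxia. Among the 52 with a negative interaction it was -0.50 in hypoxia and 0.099 in normoxia. These responses share their libraries with the interaction and so give it no separate support. In hypoxia the 3 POVPC and 3 vehicle libraries did not overlap for 89 of the 93 genes, where the same held for 23.6% of all genes tested, and nothing is read from that count because the calls rest on the same libraries.

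**Figure D1:**
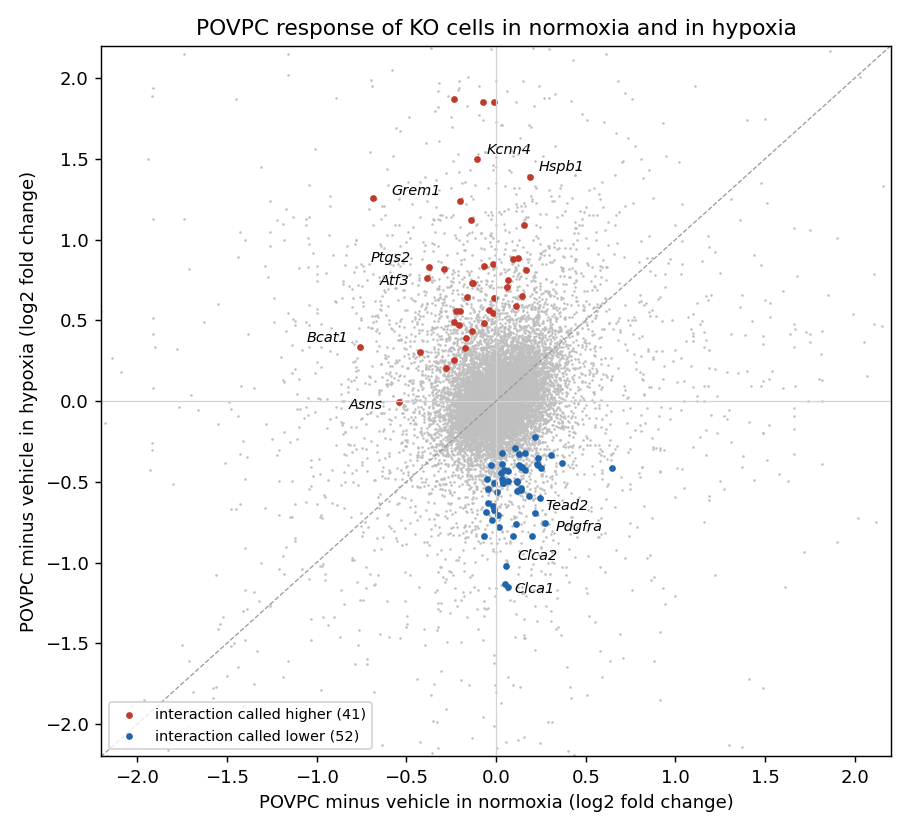
POVPC minus vehicle in KO cells, as log2 fold change, in normoxia (horizontal axis) and hypoxia (vertical axis) for each of 14496 genes (grey); red and blue points are the 41 and 52 genes whose interaction was called higher and lower, and the dashed line marks equal responses. The coloured points lie above and below the line, mostly within a narrow band of the horizontal axis, and 260 genes, 1 of them called (4930583H14Rik), fall outside the axis limit of 2.2.

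Immediate early and stress transcription factors were among the genes with a positive interaction. Atf3, a stress-induced member of the ATF family, was at 8.36, 9.82 and 8.005 CPM with vehicle and at 6.74, 6.49 and 6.80 CPM with POVPC in normoxia. In hypoxia it was at 23.5, 25.8 and 22.8 CPM with vehicle and at 38.4, 35.6 and 48.6 CPM with POVPC. The POVPC libraries were thus all lower than vehicle in normoxia and all higher in hypoxia, without overlap. The interaction of Atf3 was 1.15 ± 0.15 (log2 ± standard error, here and below; FDR 0.000158). Its POVPC response was 0.76 ± 0.099 in hypoxia (FDR 2.56e-05) and -0.39 ± 0.11 in normoxia, the latter not called (FDR 0.485).

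Ier2, an immediate early nuclear protein, was at 15.2, 19.8 and 16.2 CPM with vehicle and 15.5, 16.3 and 13.9 CPM with POVPC in normoxia, where the groups overlapped. In hypoxia it was at 19.7, 19.2 and 18.95 CPM with vehicle and at 28.5, 30.6 and 31.5 CPM with POVPC, without overlap. The interaction was 0.81 ± 0.15 (FDR 0.00624), and Ier2 rose by 0.64 ± 0.11 with POVPC in hypoxia (FDR 0.000452). Nfil3, a transcription factor of the bZIP class, had an interaction of 0.86 ± 0.15 (FDR 0.00262), with 19.6 to 20.5 CPM under vehicle and 30.4 to 36.3 CPM under POVPC in hypoxia. Its 6 normoxic libraries lay between 8.48 and 10.3 CPM. Dusp1, a phosphatase that switches off MAP kinases, passed at 0.50 ± 0.12 (FDR 0.0481), but only 2 of the 12 fits that leave out 1 KO library kept its call, and its FDR reached 0.203 without KO Vehicle Normoxia 2.

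The list of AP-1 and EGR immediate early genes had 23 members tested. Of these 3 were called higher in the interaction (Atf3, Ier2 and Dusp1) and none lower, against 0.283% and 0.359% of all genes. A positive value was found for 21, against 50.5% of all genes, and the median was 0.52 against 0.0027 for all genes. The POVPC response in hypoxia was called higher for 10 of the 23 and lower for none, against 1.97% and 2.09% of all genes. Klf2, a shear-responsive transcription factor named after its values were seen, illustrates a member just short of the threshold. It was at 1.97 to 3.81 CPM in normoxia across both groups, at 2.45, 1.43 and 2.65 CPM with vehicle in hypoxia, and at 8.18, 6.14 and 8.98 CPM with POVPC in hypoxia. Klf2 rose with POVPC in hypoxia by 1.88 ± 0.28 (FDR 0.000177), and its interaction of 1.61 ± 0.40 had an FDR of 0.0546.

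A gene of prostaglandin synthesis and a feedback inhibitor of inflammation rose with POVPC in hypoxia. Ptgs2, the inducible cyclooxygenase, was at 5.89, 4.34 and 5.02 CPM with vehicle and at 3.62, 3.31 and 4.81 CPM with POVPC in normoxia, where the groups overlapped. In hypoxia it was at 9.28, 7.77 and 7.74 CPM with vehicle and at 15.6, 14.95 and 13.96 CPM with POVPC, without overlap. The interaction of Ptgs2 was 1.21 ± 0.18 (FDR 0.000478), made of a rise of 0.83 ± 0.12 in hypoxia (FDR 6.18e-05) and a normoxic response of -0.38 ± 0.13 (FDR 0.655).

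Tnfaip3, the A20 inhibitor of NF-kB signalling, had an interaction of 0.73 ± 0.13 (FDR 0.00504). Its levels were 51.2, 53.1 and 43.6 CPM with vehicle and 71.1, 72.8 and 65.0 CPM with POVPC in hypoxia, and 15.7 to 20.2 CPM in the 6 normoxic libraries. Vcam1, an adhesion molecule for leukocytes, went the other way, with an interaction of -0.43 ± 0.10 (FDR 0.0422) that was kept in 5 of the 12 fits and had an FDR of 0.166 without KO POVPC Hypoxia 3. Tsc22d3, the glucocorticoid-induced leucine zipper gene, had an interaction of 0.79 ± 0.13 (FDR 0.00137). Of the 21 inflammatory cytokine and adhesion genes tested, 2 were called higher and 1 lower, against 0.283% and 0.359% of all genes. In the same list 14 were positive, against 50.5%, and the median was 0.40.

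Small heat shock and protein quality genes formed a further group. Hspb1, a small heat shock protein that binds unfolded proteins and actin, was at 6.66, 6.66 and 7.17 CPM with vehicle and at 8.65, 7.66 and 7.03 CPM with POVPC in normoxia. In hypoxia it was at 5.48, 3.53 and 6.11 CPM with vehicle and at 11.2, 14.3 and 13.1 CPM with POVPC, so that its 3 highest libraries of the 12 were those with both POVPC and hypoxia. The interaction was 1.20 ± 0.23 (FDR 0.00649) and the rise in hypoxia 1.39 ± 0.16 (FDR 6.16e-06). Hspa1b, an inducible HSP70 chaperone, was at 38.2, 29.1 and 29.2 CPM with vehicle and at 51.0, 63.1 and 64.6 CPM with POVPC in hypoxia, and between 31.9 and 36.2 CPM in normoxia. Its interaction was 0.79 ± 0.16 (FDR 0.0145), called in 9 of the 12 fits with 1 KO library left out (FDR 0.0615 without KO Vehicle Hypoxia 2). Hspa1b has a near-identical copy, Hspa1a, and the way unique reads were shared between them is uncertain. Hspa1a itself rose by 1.21 ± 0.25 in hypoxia (FDR 0.00514), with an interaction of 1.07 ± 0.36 that was not called (FDR 0.212).

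Zfand2a, an arsenite-inducible protein that associates with the proteasome, was called with every KO library left out in turn. It was at 59.7, 51.4 and 51.7 CPM with vehicle and at 79.0, 103 and 88.7 CPM with POVPC in hypoxia, and at 24.3 to 29.1 CPM in the 6 normoxic libraries. The interaction was 0.86 ± 0.14 (FDR 0.00137), and the highest FDR over the fits that leave out 1 KO library was 0.00934. Of 16 heat shock genes tested, 2 were called higher (Hspb1 and Hspa1b), against 0.283% of all genes, and none lower, 13 were positive, against 50.5%, and the median was 0.19. In hypoxia alone the POVPC response was called higher for 5 of the 16, against 1.97% of all genes. Hsph1, a co-chaperone of HSP70, was 1 of these, with a rise of 0.50 ± 0.083 (FDR 0.000383), and its interaction of 0.39 ± 0.12 was not called (FDR 0.152).

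The promoters of the 3 genes are shown because heat shock factor binds inverted GAA repeats. The sequences are the 250 bases before the RefSeq start site on the gene's own strand, from RefSeq on GRCm38.p6, whereas the counts were made on mm9, so that they were matched by symbol. Hspb1 is at chr5:135887669-135887918 on the plus strand, Hspa1b at chr17:34959239-34959488 on the minus strand and Zfand2a at chr5:139484492-139484741 on the minus strand. Capitals mark GAANNTTC and TTCNNGAA, the 2 ways in which a pair of inverted repeats can face. Each reads the same on both strands, and both were chosen after the values were seen.
Hspb1: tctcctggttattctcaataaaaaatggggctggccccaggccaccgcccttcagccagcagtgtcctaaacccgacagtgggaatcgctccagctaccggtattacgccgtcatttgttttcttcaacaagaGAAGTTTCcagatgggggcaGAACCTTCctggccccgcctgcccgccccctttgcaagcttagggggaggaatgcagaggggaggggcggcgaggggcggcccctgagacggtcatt
Hspa1b: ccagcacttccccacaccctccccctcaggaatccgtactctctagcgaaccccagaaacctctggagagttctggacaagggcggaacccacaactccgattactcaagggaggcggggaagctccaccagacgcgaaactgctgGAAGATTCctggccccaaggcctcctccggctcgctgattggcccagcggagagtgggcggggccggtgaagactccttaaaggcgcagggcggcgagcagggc
Zfand2a: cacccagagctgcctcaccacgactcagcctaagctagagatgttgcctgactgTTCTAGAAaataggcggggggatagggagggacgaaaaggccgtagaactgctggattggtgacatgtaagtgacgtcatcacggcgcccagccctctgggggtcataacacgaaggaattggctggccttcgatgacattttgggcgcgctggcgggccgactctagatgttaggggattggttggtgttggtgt

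Hspb1 held 2 matches to GAANNTTC, starting at bases -117 and -97 from the start site, and Hspa1b held 1 at -104. Zfand2a held 1 match to TTCNNGAA, at -196. Among genes with a positive interaction 34 of 41 (82.9%) had a promoter in the table, and among all genes tested 77.7% had one. Over windows of 300 bases, from 250 before to 50 after the start, GAANNTTC was in 17.8% of the 45 promoters of the first set, against 5.9% of the 14314 promoters of tested genes and 7.86% of all 32851 promoters. TTCNNGAA was in 8.89%, against 6.91% and 8.52%. Both patterns were chosen after the values were seen, and the first set holds Hspb1, Hspa1b and Zfand2a. Nothing is therefore read from the shares of these 2 patterns. The HIF core ACGTG, searched on both strands, was in 26.7%, against 24.5% and 19.6%. The antioxidant response core TGACNNNGC was in 13.3%, against 14.1% and 12.4%, and the ATF4 composite core TGATGNAA in 8.89%, against 2.4% and 3.97%. For genes with a negative interaction 41 of 52 (78.8%) had a promoter in the table, under the minimum of 80% set for this search, so that it is void for them and nothing is read from its shares (12.2% for the HIF core, 8.16% for the antioxidant core, 0 of 49 promoters for the ATF4 core, 4.08% for GAANNTTC and 6.12% for TTCNNGAA). The background of tested genes falls under the same minimum and is printed as a description.

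The genes that HIF is known to raise were looked at as a list. Of 34 HIF targets tested, hypoxia under vehicle raised 28 and lowered 3, where it raised 32.6% and lowered 32.8% of all genes. The POVPC response in hypoxia was called higher for 5 of the 34 and lower for none, against 1.97% and 2.09% of all genes. In the interaction 1 of the 34 was called higher, against 0.283% of all genes. It was Ndrg1, a HIF-induced gene of the NDRG family. Ndrg1 was at 64.4 to 74.7 CPM in the 6 normoxic libraries, at 217, 227 and 199.8 CPM with vehicle in hypoxia, and at 360.5, 386 and 334.5 CPM with POVPC in hypoxia. POVPC thus raised it above the hypoxic level without overlap, by 0.75 ± 0.086 (FDR 5.48e-06), and left no called change in normoxia (0.068 ± 0.087, FDR 0.832). The interaction of Ndrg1 was 0.68 ± 0.12 (FDR 0.00418).

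The glucose transporter gene Slc2a1 came next on the HIF list, with an interaction of 0.50 ± 0.12 and an FDR of 0.0554. It was at 273, 269.8 and 270.3 CPM with vehicle and at 329, 345 and 288 CPM with POVPC in hypoxia, against 10.7 to 14.7 CPM in normoxia. Egln3, the oxygen-sensing prolyl hydroxylase that is itself a HIF target, had an interaction of 0.60 ± 0.16 (FDR 0.0763). Among the 34 members 29 were positive, against 50.5% of all genes, with a median of 0.15. None of the 9 HIF subunit and oxygen sensor genes tested was called.

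Metabolic enzymes of amino acid and mitochondrial pathways were called in both directions. Bcat1, the cytosolic branched-chain aminotransferase, was at 2.46, 4.43 and 3.90 CPM with vehicle and at 2.00, 2.07 and 2.41 CPM with POVPC in normoxia. Bcat1 in hypoxia was at 38.6, 42.6 and 35.2 CPM with vehicle and at 44.8, 48.7 and 53.4 CPM with POVPC. The groups overlapped at neither oxygen level, with POVPC lower in normoxia and higher in hypoxia. Neither response of Bcat1 was called alone (0.33 ± 0.11, FDR 0.0969, in hypoxia and -0.76 ± 0.17, FDR 0.144, in normoxia), and the interaction was 1.09 ± 0.20 (FDR 0.00519).

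Asns, asparagine synthetase and a target of ATF4, owed its interaction to normoxia. It was at 33.9, 29.1 and 28 CPM with vehicle and at 20.1, 20.6 and 21.8 CPM with POVPC in normoxia, without overlap, and at 125 to 140.3 CPM across both hypoxic groups, which overlapped. Its POVPC response was -0.54 ± 0.093 in normoxia (FDR 0.0147) and -0.0043 ± 0.088 in hypoxia (FDR 0.991). The normoxic call was lost in several refits. Among them its FDR was 0.206 without KO Vehicle Normoxia 1, 0.147 without KO POVPC Normoxia 1 and 0.27 with scaling by library size alone. The interaction of 0.54 ± 0.13 (FDR 0.0424) was kept in 2 of the 12 fits with 1 KO library left out and had an FDR of 0.137 without KO POVPC Normoxia 1. Atf3 and Asns were the 2 called higher of 29 unfolded protein and ATF4 genes, against 0.283% of all genes, with none lower and a median of 0.22.

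Slc1a5, a glutamine transporter, was 1 of 13 amino acid transporter genes and the only one called, against 0.642% of all genes. Its interaction was 0.64 ± 0.15 (FDR 0.0335), called in 4 of 12 fits (FDR 0.137 without KO Vehicle Hypoxia 2). Idh2, the mitochondrial NADP-dependent isocitrate dehydrogenase, had a negative interaction. It was at 151 to 183 CPM in normoxia, at 46.7, 49.5 and 56.5 CPM with vehicle in hypoxia and at 30.9, 34.1 and 26.3 CPM with POVPC in hypoxia. The fall in hypoxia was -0.74 ± 0.093 (FDR 1.64e-05) and the interaction -0.71 ± 0.13 (FDR 0.00418). No gene of oxidative phosphorylation (27 tested, median 0.12) or of cholesterol synthesis (20 tested, median 0.24, all 20 positive against 50.5% of all genes) was called in the interaction.

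Surface receptors and channels were among the genes called with every KO library left out. Pdgfra, the receptor for platelet-derived growth factor A chains and also a fibroblast marker, was at 88.9, 100.4 and 106 CPM with vehicle and at 125, 119 and 114 CPM with POVPC in normoxia. Hypoxic libraries were at 16.4, 19.2 and 16 CPM with vehicle and at 11.5, 8.99 and 10.2 CPM with POVPC. POVPC libraries were thus all higher than vehicle in normoxia and all lower in hypoxia. The interaction of Pdgfra was -1.03 ± 0.14 (FDR 0.000332), with a fall of -0.76 ± 0.11 in hypoxia (FDR 6.88e-05) and a normoxic response of 0.27 ± 0.093 (FDR 0.655). It was the only one called of the 11 adventitial fibroblast markers tested, against 0.642% of all genes, and the median of the 11 was -0.096. In bulk libraries fewer cells of a type and less RNA per cell cannot be told apart.

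Lrp4, a receptor of the low-density lipoprotein receptor family that binds agrin, was at 206 to 246 CPM in normoxia, at 19.1, 22.1 and 19.6 CPM with vehicle in hypoxia and at 13.2, 9.94 and 10.8 CPM with POVPC in hypoxia. Its interaction was -0.93 ± 0.14 (FDR 0.000966). Clca2, of the family of calcium-activated chloride channel regulators, was at 515 to 559 CPM in normoxia, at 669, 638 and 602 CPM with vehicle in hypoxia and at 379.7, 276 and 285 CPM with POVPC in hypoxia. Its interaction was -1.08 ± 0.15 (FDR 0.000339). The related Clca1 had an interaction of -1.18 ± 0.17 (FDR 0.000478), and the counting could have split reads between the 2 genes.

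Kcnn4, a calcium-activated potassium channel, had the largest positive interaction of the genes led with, 1.61 ± 0.28 (FDR 0.00313). It was at 5.27 to 6.61 CPM in normoxia, at 1.31, 1.52 and 1.83 CPM with vehicle in hypoxia and at 3.07, 5.69 and 4.09 CPM with POVPC in hypoxia. Hypoxia thus lowered it under vehicle, and the hypoxic libraries with POVPC were nearer to the normoxic level. Emp3, a membrane protein with several spans, showed the same order of the groups. It was at 84.9 to 90.9 CPM in normoxia, at 10.7, 10.8 and 8.97 CPM with vehicle in hypoxia and at 15.99, 21.5 and 18.2 CPM with POVPC in hypoxia, and its interaction was 0.86 ± 0.17 (FDR 0.0106).

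Single genes linked to the TGF-beta, BMP and Hippo pathways were called in both directions. The Hippo pathway had no list. Grem1, a secreted antagonist of bone morphogenetic proteins, was at 13.1 to 18.7 CPM in normoxia. Its hypoxic libraries were at 2.24, 3.38 and 2.45 CPM with vehicle and at 5.90, 8.58 and 4.84 CPM with POVPC, without overlap. The interaction was 1.45 ± 0.25 (FDR 0.00418). Smad7, an inhibitory Smad, passed at 0.76 ± 0.18 (FDR 0.0481; 3 of 12 fits, FDR 0.134 without KO Vehicle Normoxia 3). Id3, a helix-loop-helix inhibitor induced by bone morphogenetic proteins, passed at -0.68 ± 0.14 (FDR 0.0160; 10 of 12 fits, FDR 0.0724 without KO POVPC Hypoxia 3). Of 22 TGF-beta and BMP genes, 2 were called higher and 1 lower, against 0.283% and 0.359% of all genes, and the median was -0.0039.

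Tead2, a DNA-binding partner of the Hippo effectors YAP and TAZ, had the lowest FDR of the interaction. It was at 129, 145 and 139 CPM with vehicle and at 152, 165 and 162 CPM with POVPC in normoxia. Under hypoxia the libraries were at 67.9, 71.0 and 68.7 CPM with vehicle and at 43.1, 45.0 and 40.0 CPM with POVPC. The groups overlapped at neither oxygen level, and the direction turned between them. The interaction of Tead2 was -0.91 ± 0.10 (FDR 1.31e-05), with a fall of -0.70 ± 0.073 in hypoxia (FDR 1.88e-06) and 0.22 ± 0.070 in normoxia (FDR 0.645). Ankrd1, a target of YAP named after its values were seen, had an interaction of 0.73 ± 0.14 (FDR 0.00527). Sox4, a transcription factor of the SoxC group, was at 651, 644 and 616 CPM with vehicle and at 531, 439 and 481 CPM with POVPC in hypoxia, with an interaction of -0.63 ± 0.11 (FDR 0.00432).

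Collagen genes were among those with a negative interaction. Col4a5, a chain of basement membrane collagen, was at 354 to 395 CPM in normoxia, at 46.0, 50.1 and 46.9 CPM with vehicle in hypoxia and at 28.2, 29.7 and 22.1 CPM with POVPC in hypoxia. Its interaction was -0.77 ± 0.14 (FDR 0.00336). Col5a2, a fibrillar collagen chain, was at 807, 887 and 857 CPM with vehicle and at 648, 546 and 604 CPM with POVPC in hypoxia, against 2363 to 2533 CPM in normoxia. Its interaction was -0.55 ± 0.12 (FDR 0.0172), called in 8 of the 12 fits (FDR 0.0653 without KO POVPC Hypoxia 2).

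Postn, a matricellular protein of injured vessels, had an interaction of -0.79 ± 0.18 (FDR 0.0336; 4 of 12 fits, FDR 0.133 without KO Vehicle Hypoxia 2). Col11a1 and Col14a1, named after their values were seen, passed at -0.71 ± 0.17 (FDR 0.0481) and -0.52 ± 0.12 (FDR 0.0279), in 3 and 4 of the 12 fits. Adamts5, a protease that cleaves aggrecan and versican, passed at -0.56 ± 0.13 (FDR 0.0472; 3 of 12 fits). The guidance ligand gene Sema3a passed at -0.49 ± 0.10 (FDR 0.0159; 7 of 12 fits). Of 28 extracellular matrix genes 2 were called lower, against 0.359% of all genes, and none higher. Of the 28, 7 were positive, against 50.5% of all genes, and the median was -0.19. The guidance and migration list had 22 members tested, 1 called lower, against 0.359% of all genes, and a median of -0.19.

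Cp, the copper-binding ferroxidase ceruloplasmin, was raised by hypoxia under vehicle, by 2.43 ± 0.088 (FDR 8.19e-20). It was at 38.7, 36.9 and 38.0 CPM with vehicle and at 39.5, 44.3 and 50.6 CPM with POVPC in normoxia, and at 212, 196 and 205 CPM with vehicle and 148, 122 and 135 CPM with POVPC in hypoxia. Its interaction was -0.84 ± 0.12 (FDR 0.000334). A further 3 genes led with (Pbxip1, Plekhh2 and Casp12, the last a caspase of the endoplasmic reticulum) had interactions of -0.69 ± 0.14, -0.66 ± 0.12 and -0.64 ± 0.13. On the positive side Fam110c had 1.11 ± 0.22.

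**Figure D2:**
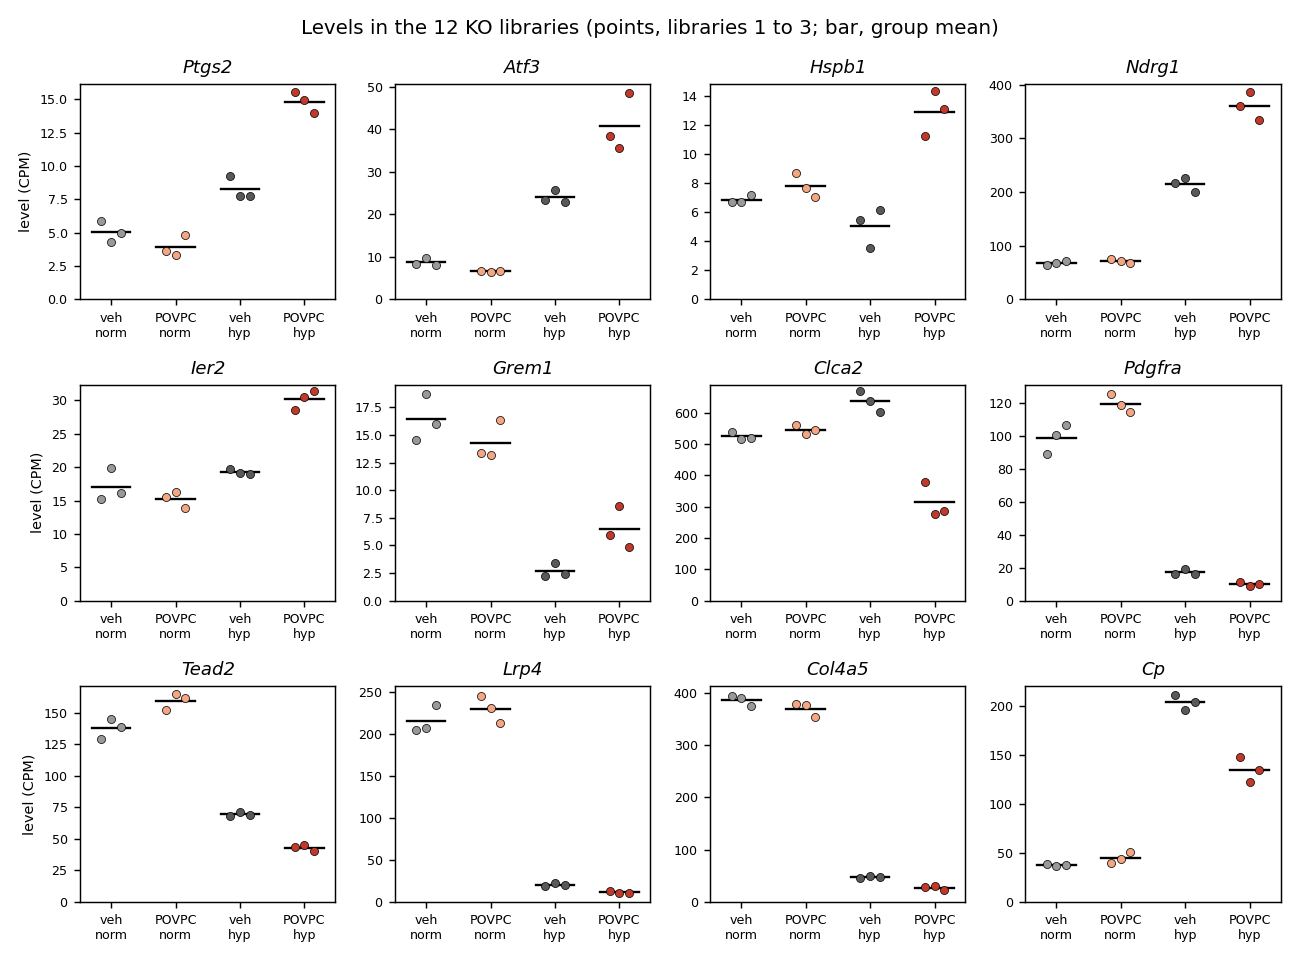
Levels in CPM (vertical axis, from 0) of 12 genes in the 4 KO groups, with a point for each of the 3 libraries and a bar for the group mean; veh is vehicle, norm normoxia and hyp hypoxia. Ptgs2, Atf3, Hspb1, Ndrg1 and Ier2 were highest in the POVPC Hypoxia libraries, and Pdgfra, Tead2, Lrp4 and Col4a5 were lowest there.

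Cytoskeletal genes were called in both directions. Tagln, an actin-binding protein of contractile smooth muscle, was at 14.2, 14.3 and 12.7 CPM with vehicle and at 7.47, 6.05 and 9.69 CPM with POVPC in hypoxia, and at 3.59 to 5.22 CPM in normoxia. Its interaction was -1.04 ± 0.23 (FDR 0.0289), kept in 4 of the 12 fits with 1 KO library left out (FDR 0.123 without KO Vehicle Normoxia 2). It was the only one called of 19 contractile genes, against 0.642% of all genes, and the median of the 19 was -0.17. Srf, the serum response factor that drives actin genes, Actg1, a cytoplasmic actin, Tuba1c, an alpha-tubulin, and Rhob, a small GTPase, were named after their values were seen. Their interactions were 0.65 ± 0.14, 0.68 ± 0.12, 0.76 ± 0.13 and 0.64 ± 0.11. Srf kept its call in 9 of the 12 fits with 1 KO library left out (FDR 0.0684 without KO POVPC Normoxia 3) and lost it with library size alone (FDR 0.0794). Actg1 and Tuba1c belong to families of near-identical genes, so their counts are uncertain.

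Across the 26 lists, 12 held a called gene, and 20 of the 93 called genes were in a list. The remaining 73 were in none. No gene was called in the lists for NRF2 targets (21 tested, 16 positive, median 0.15), cell cycle (26 tested, 18 positive, median 0.13), ribosomal proteins (20 tested, all positive, median 0.15), lipid efflux and storage (18 tested), interferon response (17 tested) or autophagy and lysosome (21 tested). Among all genes 50.5% were positive. Hmox1, the NRF2 target that degrades haem, was closest among NRF2 targets. It was at 93.6, 71.6 and 55.5 CPM with vehicle and at 147, 136 and 167 CPM with POVPC in hypoxia, and rose there by 1.02 ± 0.13 (FDR 6.88e-05), with an interaction of 0.80 ± 0.19 (FDR 0.0522). The median of the ribosomal protein list ran from 0.039 to 0.28 over the fits that leave out 1 KO library, and that of the AP-1 and EGR list from 0.45 to 0.59.

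Of 16 macrophage markers, 7 had enough counts to be tested, and all 7 had positive interactions, against 50.5% of all genes. None was called, and their median was 0.58 in KO cells and -0.64 in WT cells. Among them Lyz2 was at or below 0.512 CPM in all 12 KO libraries. A gene can enter the tested set through the group where it is high, so nothing is read from the shared sign. Lgals3, a galectin that many cell types express, was at 309, 269 and 290 CPM with vehicle and 347, 463 and 361 CPM with POVPC in hypoxia, and its interaction was 0.53 ± 0.15 (FDR 0.104). The 6 markers fixed for macrophages summed to 2.76 to 3.79 CPM with vehicle and 3.61 to 5.19 CPM with POVPC in hypoxia, and Tyrobp was at 0 counts in 10 of the 12 KO libraries.

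**Figure D3:**
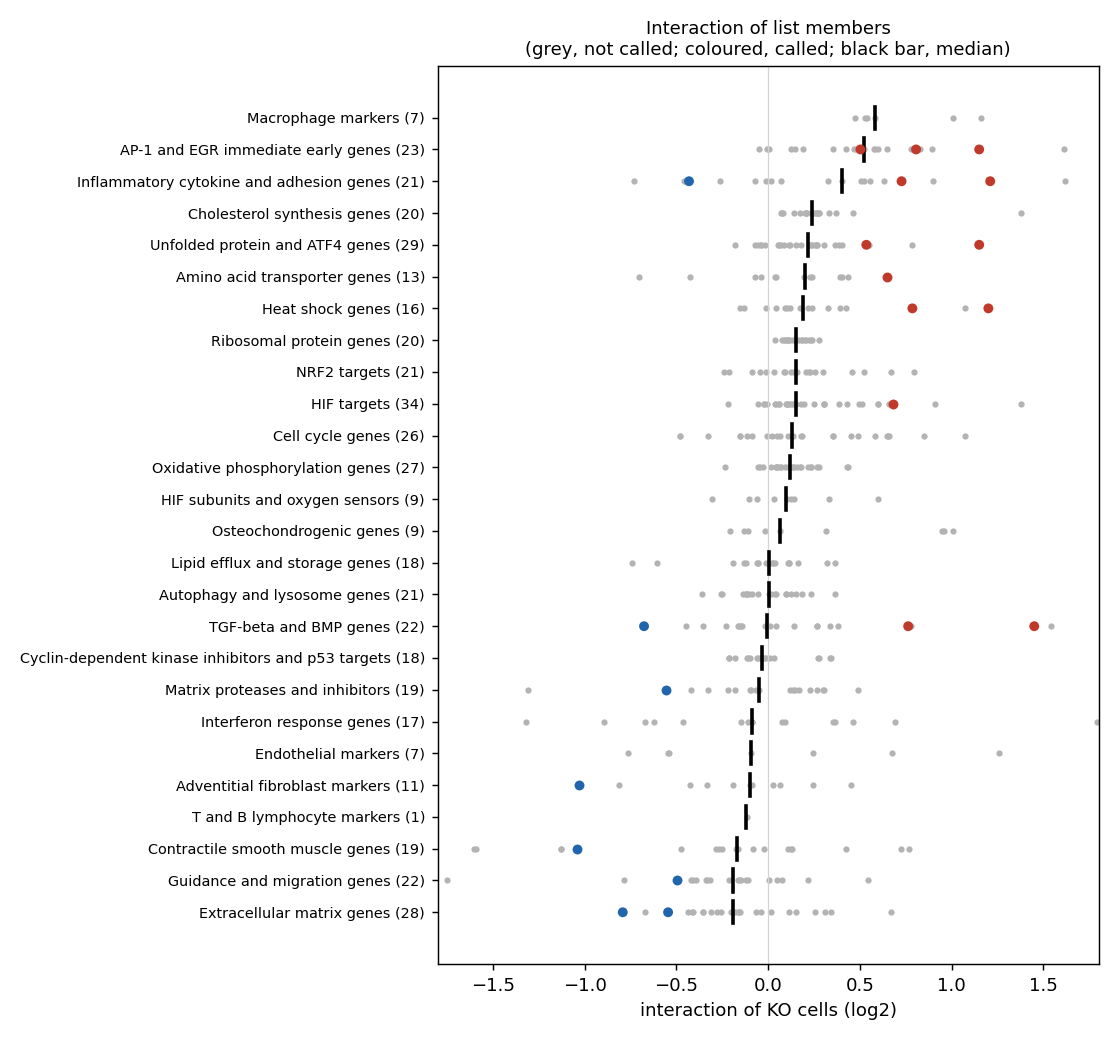
Interaction of KO cells on the log2 scale (horizontal axis) for the tested members of each of 26 gene lists (vertical axis, number tested in brackets); grey points were not called, red were called higher, blue were called lower, and black bars are medians. The AP-1 and EGR list sits to the right with a median of 0.52 and the matrix list to the left with -0.19, and 10 of 478 points lie beyond the axis limit of 1.8.

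Of the 6 genes that POVPC changed in normoxia, 5 fell. Aldh1l2, a mitochondrial folate enzyme, was at 17.4, 18.2 and 18.2 CPM with vehicle and at 11, 10.6 and 8.36 CPM with POVPC, and fell by 0.84 ± 0.11 (FDR 0.000346). It fell in hypoxia too, by 0.50 ± 0.10 (FDR 0.00429), and its interaction was not called (0.34 ± 0.15, FDR 0.446). Mthfd2, a mitochondrial enzyme of the same folate cycle, fell in normoxia by 0.45 ± 0.088 (FDR 0.0498), and Oxct1, which lets cells use ketone bodies, fell by 0.42 ± 0.076 (FDR 0.0265). Mthfd2 lost its call in 9 of the 12 fits that leave out 1 KO library (FDR 0.442 without KO POVPC Normoxia 2) and with a replicate block (FDR 0.0645), and Oxct1 lost it in 5 (FDR 0.352 without KO POVPC Normoxia 3). Col2a1, the cartilage collagen, fell by 1.25 ± 0.19 (FDR 0.00452; FDR 0.0708 without KO Vehicle Normoxia 2), and Asns by 0.54 ± 0.093, as given above.

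The count of 6 genes called in normoxia rests on KO Vehicle Normoxia 3: without that library 310 genes were called in normoxia, 224 higher and 86 lower, and all of the 6 were among them. Leaving out any other KO library gave 1 to 6 calls.

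The interaction itself also moved with single libraries. It had 149 calls without KO Vehicle Normoxia 3, of which 84 were among the 93, and 68 without KO Vehicle Hypoxia 3, of which 60 were. Without KO POVPC Hypoxia 1 there were 170 calls. There were 48 without KO POVPC Normoxia 1 and 48 without KO Vehicle Hypoxia 2, 51 without KO POVPC Hypoxia 3, 57 without KO POVPC Normoxia 3, 59 without KO POVPC Normoxia 2 and 61 without KO Vehicle Normoxia 2. Of the 93 genes, 58 lost their call in at least 1 of the 12 such fits and 35 were called in all 12, 19 higher and 16 lower, and the 12 largest of each direction that also reached a group mean of 5 CPM and have a gene name are the 24 led with. With multimapping alignments per assigned one as a covariate, all 93 were called among 283. Scaling by library size alone gave 21 calls higher and 9 lower, against 41 and 52.

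**Figure D4:**
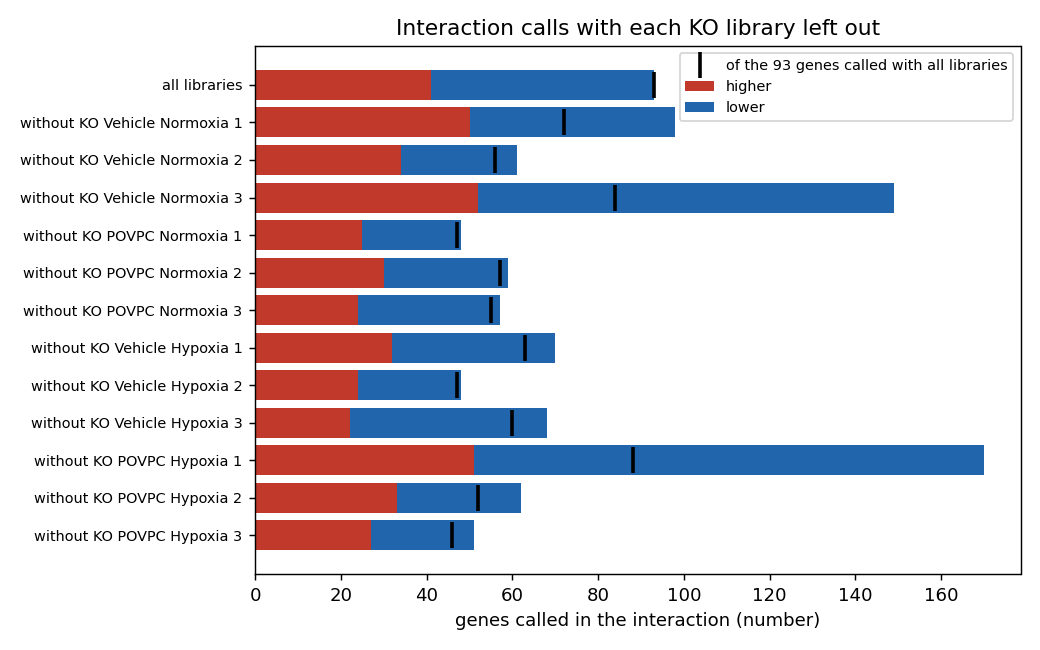
Number of genes called in the interaction (horizontal axis) with all libraries and with each of the 12 KO libraries left out (vertical axis), split into higher (red) and lower (blue); the black tick marks how many of the 93 genes remained called. The total ran from 48 to 170, and 46 to 88 of the 93 remained.

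The same interaction in WT cells was larger in number and differed in direction for many genes. It was called for 3413 genes (23.5% of those tested). POVPC itself changed 3896 genes of WT cells in normoxia (26.9%) and 3037 in hypoxia (21%). The KO and WT interactions share no libraries. Of the 93 KO genes 54 (58.1%) were also called in WT cells, which is 1.58% of the WT calls, with 27 in the same and 27 in the opposite direction. The difference between the 2 interactions, KO minus WT, was called for 2000 genes (13.8%), of which 1125 were positive (7.76%) and 875 negative (6.04%). Of the 93, 58 (62.4%) were called in that test. The difference holds the KO interaction as a term, with the same KO libraries, so nothing is read from that share. Without the 3 shallowest of the 24 libraries (WT POVPC Hypoxia 1, WT POVPC Hypoxia 2 and KO Vehicle Hypoxia 3) the KO minus WT test had 1278 calls.

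The interactions of Ptgs2 and Pdgfra turned direction between the lines. The interaction of Ptgs2 was 1.21 ± 0.18 in KO cells and -1.89 ± 0.14 in WT cells, a difference of 3.10 ± 0.23 (FDR 7.04e-11). That of Pdgfra was -1.03 ± 0.14 in KO and 1.23 ± 0.16 in WT cells, a difference of -2.26 ± 0.21 (FDR 6.05e-09). Tead2 had -0.91 ± 0.10 in KO and 0.90 ± 0.11 in WT cells, a difference of -1.81 ± 0.15 (FDR 4.73e-10). In WT cells the POVPC response of Ptgs2 was 1.46 ± 0.10 in normoxia and -0.43 ± 0.1 in hypoxia. That of Pdgfra was -1.06 ± 0.093 in normoxia and 0.17 ± 0.12 in hypoxia, the latter not called (FDR 0.466). For Tead2 it was -0.065 ± 0.071 in normoxia, not called (FDR 0.566), and 0.84 ± 0.079 in hypoxia.

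Among stress genes, Hspb1 had 1.20 ± 0.23 in KO and -0.86 ± 0.19 in WT cells (difference 2.06 ± 0.30, FDR 1.31e-05), and Ier2 had 0.81 ± 0.15 and -0.98 ± 0.15 (difference 1.78 ± 0.22, FDR 7.68e-07). In WT cells POVPC raised Hspb1 by 1.53 ± 0.14 in normoxia and by 0.67 ± 0.14 in hypoxia (FDR 0.000596). The negative WT interaction of Hspb1 thus came with a rise in hypoxia, smaller than in normoxia. Ier2 rose in WT cells by 1.06 ± 0.11 in normoxia, with no called change in hypoxia (0.08 ± 0.11, FDR 0.659). The interaction of Atf3 was positive in both lines, at 1.15 ± 0.15 and 0.52 ± 0.15, with a difference of 0.63 ± 0.21 (FDR 0.0442). Kcnn4 (1.61 ± 0.28 and 1.71 ± 0.27), Clca2 (-1.08 ± 0.15 and -0.93 ± 0.15), Lrp4 (-0.93 ± 0.14 and -0.96 ± 0.16), Col4a5 (-0.77 ± 0.14 and -0.67 ± 0.14) and Tsc22d3 (0.79 ± 0.13 and 0.66 ± 0.12) had no called difference. For Kcnn4 the difference was -0.10 ± 0.39, so the test does not show that the lines act alike.

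**Figure D5:**
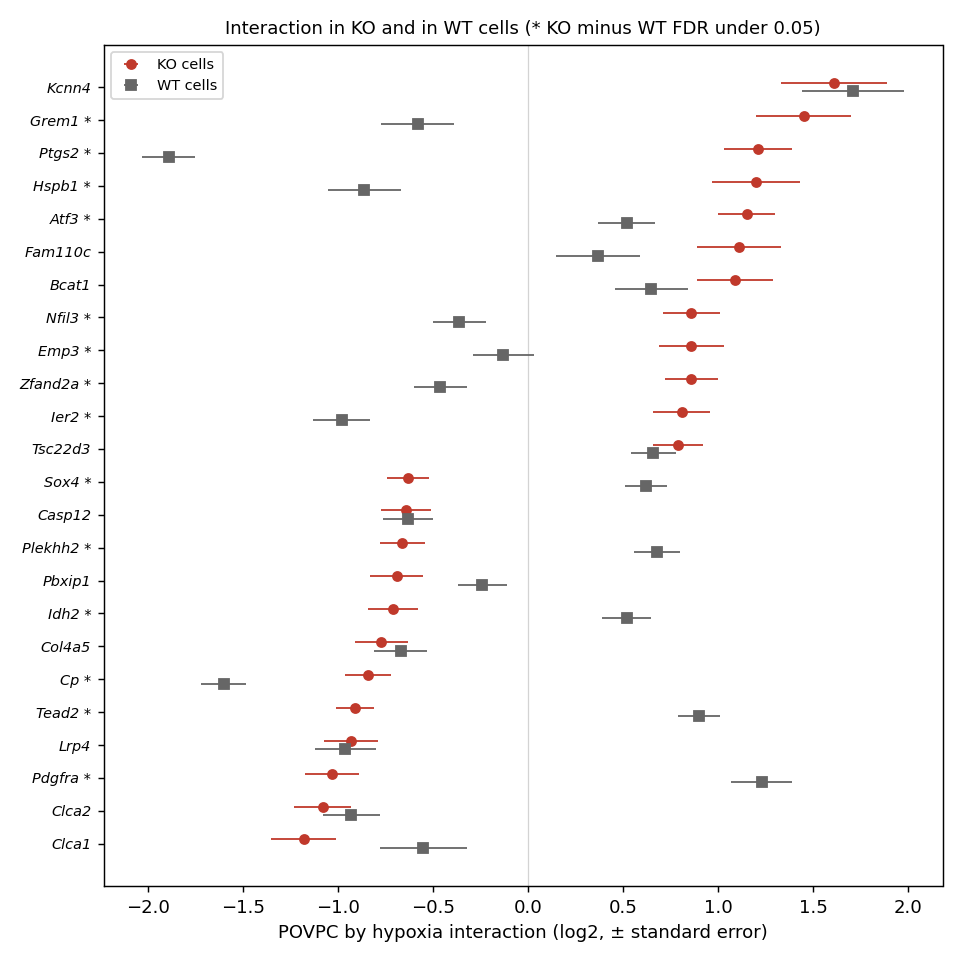
POVPC by hypoxia interaction on the log2 scale (horizontal axis, points with bars of 1 standard error) of the 24 genes led with, in KO cells (red circles) and WT cells (grey squares); an asterisk marks a KO minus WT difference with an FDR under 0.05. Kcnn4, Lrp4, Col4a5 and Casp12 nearly coincide, whereas Ptgs2, Hspb1, Tead2 and Pdgfra lie on opposite sides of 0.

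Among the 5 genes of each direction with the smallest p for the KO minus WT difference, Tead2 was the only one called in KO cells. Ly6a, a surface marker of adventitial progenitors, had an interaction of -0.096 ± 0.16 in KO cells (FDR 0.910) and -6.09 ± 0.17 in WT cells. Its KO libraries were at 257 to 304 CPM in normoxia and 49.2 to 57.6 CPM in hypoxia, with vehicle and POVPC overlapping at both, whereas its WT means were 9.22 CPM with vehicle and 400.4 CPM with POVPC in normoxia. Anxa8, a membrane-binding annexin, had 0.12 ± 0.11 in KO and -3.69 ± 0.11 in WT cells. Ckb, brain-type creatine kinase, had 0.59 ± 0.16 in KO cells (FDR 0.0819) and 3.34 ± 0.16 in WT cells. Of the cell cycle list 22 of 26 members and of the cholesterol synthesis list 18 of 20 were called higher in KO minus WT, against 7.76% of all genes, while neither list had a gene called in KO cells.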

How the data were processed

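RNA of 12 KO and 12 WT culture libraries was compared through a table of raw read counts per gene, which the authors made and deposited. Per the file headers, STAR alignments were assigned by gene name to mm9 exons (UCSC genes) using featureCounts 1.4.4, with no strand setting and with mates taken as separate reads. Even numbers were 54.5 to 57.6% of the counts. Here, edgeR 4.0.16 in R 4.3.3 kept 14496 genes (filterByExpr by group, minimum count 10), scaled libraries by TMM and fitted all 24 libraries in 1 robust quasi-likelihood model of 8 groups, with 2-sided tests and Benjamini-Hochberg FDR over all genes. Standard errors were derived from the test, as the size of the log2 value divided by the square root of its quasi-likelihood F statistic. Levels are CPM on TMM-scaled library sizes, not per length, so genes are not compared in level. The genes led with are the 12 largest positive and negative interactions called with all libraries and with each KO library left out, with a group mean of at least 5 CPM. Up to 3 members per list by smallest p and 5 genes per direction of the KO minus WT difference were added. Gene lists, members and tests were chosen with earlier results of these data known. Alternatives were RLE factors, library size alone, DESeq2 1.42.0, other filters, a replicate block, non-robust and KO-only fits, halved counts, a 2-fold minimum and each library left out. The steps were tested on simulated data. Lesion libraries were not used, and 1 gene called in normoxia is not reported here.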

Additional observations from a re-analysis of the deposited data

Results flagged for a closer look

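The interaction differed between KO and WT cells, by the test of the difference itself, for 2000 genes (13.8% of those tested). The difference was also called for 46 of the 68 genes named and examined here. Of the 68, 59 were named through their KO interaction, which is a term of the same difference, and 37 of these were called. The others were named for their small p in this very test, so nothing is read from these counts. Values are KO minus WT on the log2 scale, each with an edgeR FDR under 0.05. Since each genotype is 1 line, genotype and line cannot be told apart. WT POVPC Hypoxia 1 and 2 and KO Vehicle Hypoxia 3 are the shallowest of the 24 libraries. Positive differences were found for Atf3 0.63, Ier2 1.78, Ier3 2.70, Klf2 2.40, Nfil3 1.22, Hspb1 2.06, Zfand2a 1.32, Asns 0.96, Hmox1 1.69, Ndrg1 0.83, Slc2a1 0.97, Egln3 0.93, Sgk1 2.38 and Gadd45g 2.37. The same sign was found for Ptgs2 3.10, Grem1 2.02, Smad7 0.82, Id3 0.64, Slc1a5 1.25, Emp3 1.00, Cp 0.75, Cyp26b1 2.77, Lgals3 2.39, Ly6a 5.99, Msln 4.30, Anxa8 3.81 and Scel 2.98. A further 9 genes, most of them of matrix or cytoskeleton, had either sign: Col14a1 0.99, Tagln 1.02, Tuba1c 0.90, Rhob 0.50, Ankrd1 2.28, Actg1 -0.77, Col11a1 -2.07, Adamts5 -1.27 and Sema3a -0.65. Negative differences were also found for Tead2 -1.81, Sox4 -1.25, Tfcp2l1 -2.55, Pdgfra -2.26, Plekhh2 -1.35, Idh2 -1.24, Ckb -2.75, Shisa2 -3.03, Sdpr -2.32 and Pcdhb17 -0.58. The sign of a difference is not the direction in KO cells: Cp had a negative interaction in both lines, smaller in KO cells.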

How the results depend on the processing

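The interaction of KO cells had 93 calls. It had 30 with scaling by library size alone, of which 28 were among the 93, 270 with DESeq2 (92 of the 93), 283 with the multimapping covariate, an alternative chosen after seeing the data (93 of the 93), 19 with a 2-fold minimum, and 48 to 170 with 1 KO library left out. RLE factors, both other filters, halved counts, and non-robust and KO-only fits gave 72 to 109. The 588 calls of the POVPC response in hypoxia became 341 with library size alone, 991 with DESeq2, 60 with a 2-fold minimum and 269 to 740 with 1 library left out. The 6 calls in normoxia became 3 with library size alone, 3 without robust estimation, 2 with only KO groups fitted, 23 with DESeq2, 1 with a 2-fold minimum, 214 with KO Vehicle Hypoxia 3 and KO Vehicle Normoxia 3 both left out (chosen after seeing the data), and 1 to 310 with 1 library left out. The 2000 calls of KO minus WT became 933 with a 2-fold minimum, 1278 without the 3 shallowest libraries (chosen after seeing the data) and 1709 to 2430 with 1 library left out. A fold minimum can only lower a count. The cause of the other moves was not tested. Replicate numbers do not pair the libraries: same-numbered KO libraries correlated at -0.239 to 0.183 in their deviations from group means, and 5 of 12 correlated best with their own number. A replicate block gave 99, 549, 5 and 1945 calls in the 4 comparisons. For 74 gene values named here no direction turned in 1464 checks, of which 59 compared only the sign on the CPM scale. In these checks 199 lost their call (162 with a KO library left out, 30 with library size alone) and 25 gained one. WT libraries were not left out in these checks, which also cover KO minus WT values. Library size alone moved the median POVPC response of all genes in hypoxia from 0.0091 to 0.089.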

Other observations

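Some called genes belong to none of the lists and were named after their values were seen. Ror2, a receptor for Wnt5a, was at 14.9 to 17.6 CPM in normoxia, at 1.86, 1.95 and 1.83 CPM with vehicle in hypoxia and at 4.07, 4.34 and 3.64 CPM with POVPC in hypoxia. Its interaction was 0.93 ± 0.19 (FDR 0.0159). Cyp26b1, which degrades retinoic acid, was at 1.69, 1.33 and 2.04 CPM with vehicle and at 4.32, 3.52 and 4.00 CPM with POVPC in hypoxia. In normoxia it was low, at 0.5259 to 0.7176 CPM with vehicle and at 0.3055 to 0.4451 CPM with POVPC. The interaction of Cyp26b1, which rests in part on these low levels, was 1.94 ± 0.45 (FDR 0.0321). P2rx7, an ATP-gated ion channel, was at 33.1, 36.2 and 29.4 CPM with vehicle and at 47.0, 73.6 and 56.0 CPM with POVPC in hypoxia, with an interaction of 0.90 ± 0.22 (FDR 0.0457). Sgk1, a kinase of cell stress and ion transport, and Gadd45g, a stress-induced growth regulator, had interactions of 0.48 ± 0.12 and 0.55 ± 0.13 (FDR 0.0457 and 0.0335). All 5 rose with POVPC in hypoxia. Each interaction lost its call in at least 1 fit: the highest FDR with 1 library left out was 0.0592 for Ror2 (KO Vehicle Hypoxia 1), 0.106 for Cyp26b1 (KO Vehicle Hypoxia 2), 0.175 for P2rx7 (KO POVPC Hypoxia 2), 0.151 for Sgk1 and 0.139 for Gadd45g (both KO POVPC Hypoxia 3).

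On the negative side, Ddx58, the RIG-I sensor of viral RNA, was at 59.5, 54.8 and 62.3 CPM with vehicle and at 41.0, 37.7 and 34.8 CPM with POVPC in hypoxia, and at 73.2 to 79.1 CPM in normoxia. Its interaction was -0.59 ± 0.10 (FDR 0.00378), called in all 12 fits with 1 KO library left out. Pcdhb17, a clustered protocadherin of cell contacts, had an interaction of -0.61 ± 0.11 (FDR 0.00366), and its counts may be shared with the similar genes of its cluster.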
